A study of Mus musculus with 6 samples.

Results

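The potassium channel genes were taken as every gene of the deposited table whose symbol starts with Kcn, and they were grouped by the letters after it. The rule found 96 of the 31838 genes in the table. Of the 96, 91 are annotated as protein coding in GENCODE M21, and 6 members (Kcnab3os, Kcnd3os, Kcnmb4os1, Kcnmb4os2, Kcnq1ot1 and the coding gene Kcnrg) carry the letters without belonging to a channel subunit family. The hippocampus was sampled from wild type C57BL/6 mice at 4 months of age. The treated group had received 50 mg/kg/day of butyl benzyl phthalate (BBP), a compound used to soften plastics, and the control group had received corn oil. PolyA-selected RNA was sequenced from 3 libraries per group, named here by group and number. The study, by its title, set BBP beside cognitive impairment. Sex, route and length of treatment are unstated, as is whether each library was a separate animal. The p-values therefore measure library-to-library spread, which may be technical.

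Potassium channels let potassium ions leave or enter the cell through a pore with a conserved selectivity filter, and in hippocampal neurons they set the resting potential, shape the action potential and control how often it fires. Voltage-gated subunits (Kcna to Kcnd, Kcnh and Kcnq) open on depolarisation, inward rectifiers (Kcnj) and tandem-pore channels (Kcnk) carry resting and receptor-controlled current, and Kcnma, Kcnn and Kcnt channels open on calcium or sodium. Auxiliary subunits (Kcnab, Kcnip, Kcne, Kcnmb) and electrically silent subunits (Kcnf, Kcng, Kcns, Kcnv) form no working pore alone and change the gating or delivery of the channels they join.

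The feature that unites the pore-forming members is the selectivity filter signature, which is shown here because the auxiliary subunits and other genes that share the prefix lack it. A complete coding sequence was found in the GENCODE M21 transcripts for 91 members (the longest was taken), and 74 of them held the signature, a run of 5 codons. The pattern allowed threonine or serine, then valine, isoleucine, leucine or threonine, then glycine, then tyrosine, phenylalanine or leucine, then glycine. Which members held it depends on this pattern, and the electrically silent Kcnf, Kcng, Kcns and Kcnv genes were among them. All 13 Kcnk genes held it in 2 places and the other 61 in 1 place. The 17 without it were the 3 Kcnab, 5 Kcne, 4 Kcnip and 4 Kcnmb genes and Kcnrg. The lines give the 45 coding bases around the signature, read 5′ to 3′ on the coding strand, for members described further on, with the 15 bases of the 5 filter codons in capitals.
Kcna1: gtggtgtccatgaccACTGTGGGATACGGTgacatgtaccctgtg
Kcna2: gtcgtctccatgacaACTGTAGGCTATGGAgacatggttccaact
Kcnh7: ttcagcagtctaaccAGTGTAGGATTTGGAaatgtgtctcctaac
Kcnj13: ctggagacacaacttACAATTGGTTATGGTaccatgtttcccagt
Kcnk1, first: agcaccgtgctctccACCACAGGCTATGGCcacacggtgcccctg
Kcnk1, second: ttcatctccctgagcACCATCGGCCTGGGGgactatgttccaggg
Kcna1 and Kcna2, which belong to the same family, were identical at 31 of the 45 bases. Kcna1 and Kcnh7, of different voltage-gated families, shared 22 bases, and Kcna1 and Kcnj13, an inward rectifier, shared 22 as well.

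No potassium channel gene passed the test for a difference between BBP and corn oil over all genes. Of the 96 members, 88 passed the filter on low counts and were tested, and 0 of 88 reached an adjusted p under 0.05 in edgeR's quasi-likelihood test on the estimated counts, where 0.0% of the 20428 tested genes did. Their adjusted p ranged from 0.953 to 0.998. DESeq2 on the same counts also called 0 of the 88, against 0.0196% of all genes, and limma on log2(FPKM + 1) called 0 of the 62 with a mean of at least 1 FPKM, with 0 at an unadjusted p under 0.05, where 2.98% of all genes were. The 8 members not tested were Kcne1, Kcng3, Kcnj15, Kcnk7, Kcnk15, Kcnk18, Kcnmb3 and Kcnv2, all at a mean under 0.1 FPKM (fragments normalised for transcript length and library size).

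At an unadjusted p under 0.05, edgeR left 1 member, Kcnh7, or 1.14% of those tested, against 3.35% of all genes. The split by direction was 1 member higher in BBP, where 1.98% of all genes were, and 0 members lower, where 1.37% were. The DESeq2 fit had 3 members at an unadjusted p under 0.05 (Kcnh7, Kcna1 and Kcnj13), or 3.41% of those tested, against 3.87% of all genes. In FPKM, all 3 BBP libraries lay above all 3 corn oil libraries for Kcnh7, Kcnk4 and Kcnma1, which is 3.41% of the members tested against 4.4% of all genes. They lay below for Kcnj13 alone, which is 1.14% against 5.25%. The members' share at an unadjusted p under 0.05 was below that of all genes in edgeR without a replicate block and in DESeq2, both with all libraries, but over all 14 fits it was above it in 5, among them 4 of the 6 that leave out 1 library. It was farthest above without BBP library 2, at 9 of 90 members, against 3.43% of all genes. The share was 5.62% of members against 7.0% of all genes without BBP library 1, and 7.87% against 7.26% without BBP library 3. Without corn oil libraries 1, 2 and 3 it was 2.27% against 1.86%, 2.22% against 2.25% and 3.33% against 2.2%.

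Of the 88 members tested, 2 had a log2 fold change (BBP over corn oil) of at least 1 in size, against 588 of 20428 genes. They were Kcna3, at 1.03 ± 0.70 (SE) and a mean of 0.19 FPKM, and Kcnj13, at -1.04 ± 0.50 (SE). The members' log2 fold changes ranged from -1.04 to 1.03. Their median was 0.09, against 0.01 for all genes tested, and 60 of 88 were positive, or 68.2%, against 52.4% of all genes. Without BBP library 1 the median was 0.025, and 50 of the 89 members tested then were positive. It was 0.11 without BBP library 2 and 0.15 without BBP library 3. For 67 of the 88 members, or 76.1%, the whole 95% interval of the fold change was inside 2-fold up or down, against 69.9% of all genes. The members' median standard error was 0.18 (log2). In bulk tissue, fewer cells of a type and less RNA per cell cannot be told apart, which holds for all levels given here. The plot of fold changes by prefix group shows the spread.

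**Figure D1:**
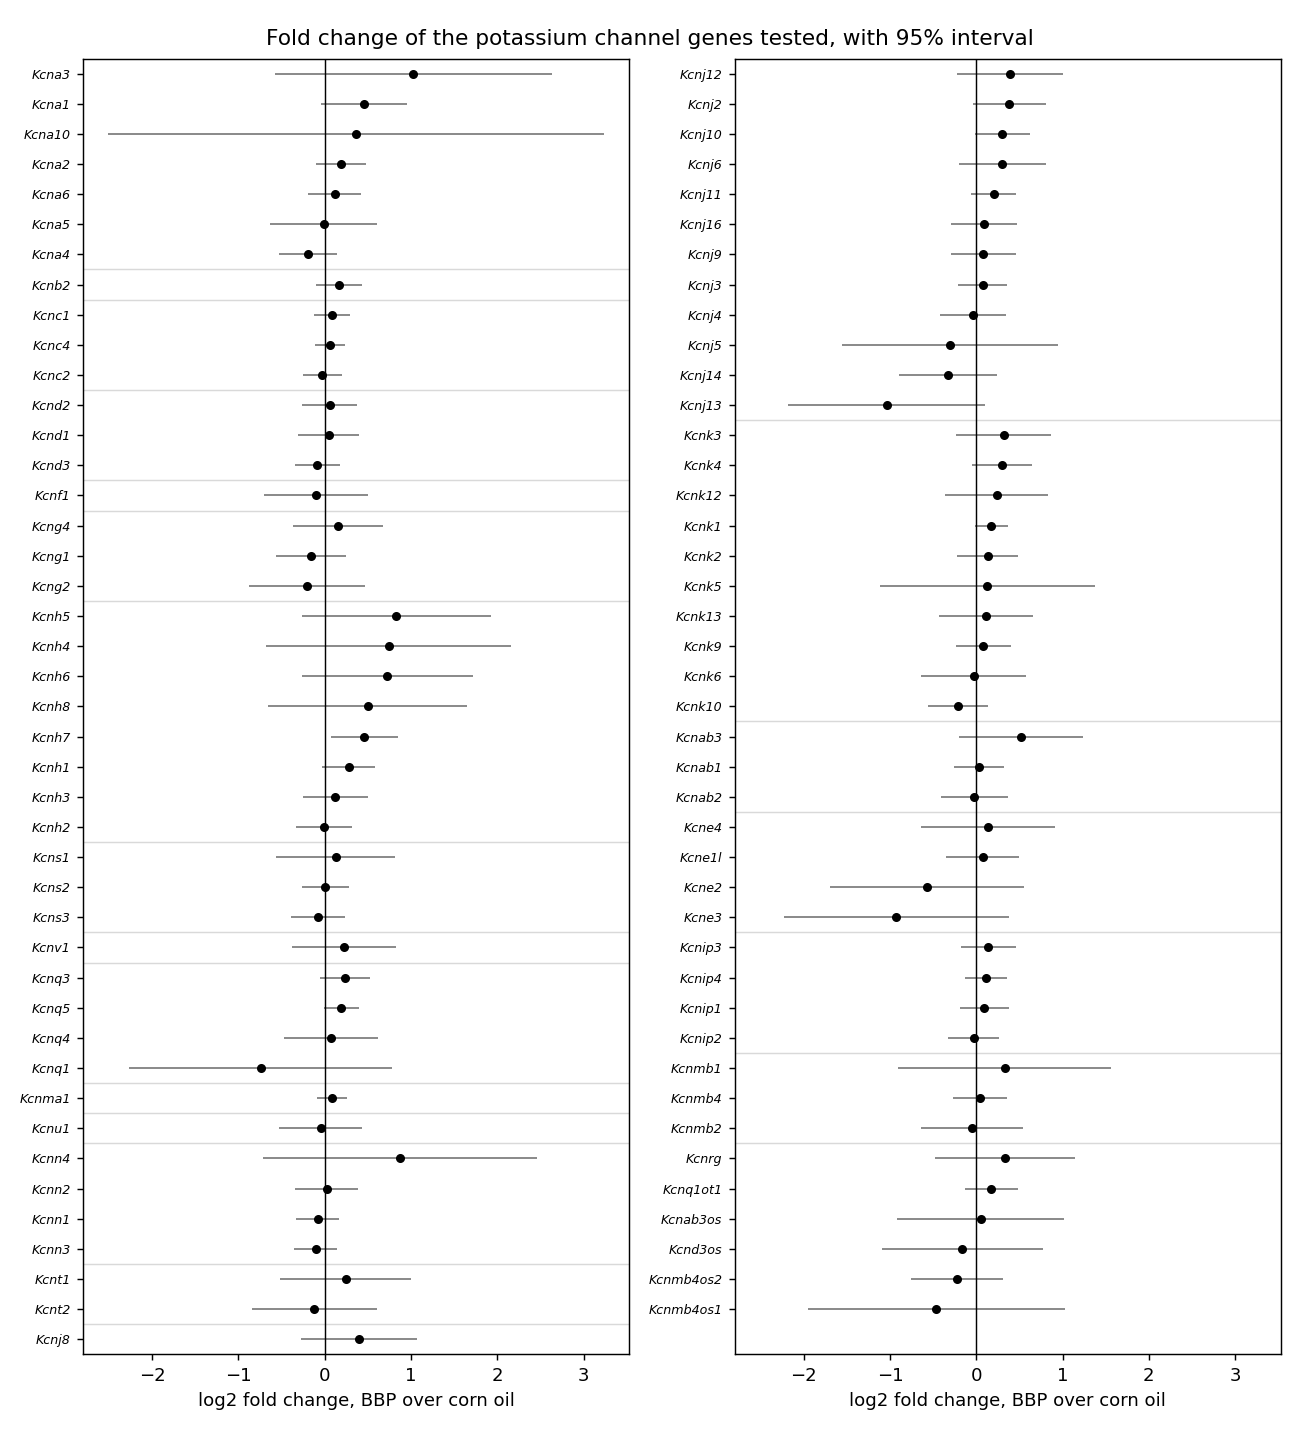
Log2 fold change (BBP over corn oil, edgeR) of 85 of the 88 tested members by prefix group, each point with its 95% interval as a line. The members spread around 0, with a median of 0.09, and none reached an adjusted p under 0.05.

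The libraries were of even depth, but BBP library 1 and corn oil library 3 differed from the rest in striatum and dentate granule neuron markers. The deposited estimated counts summed to 62477604 to 67270275 per BBP library and to 62747522 to 68422361 per corn oil library. Striatum markers summed to 221, 91.6 and 88.3 FPKM in BBP libraries 1 to 3 and to 90.7, 83.6 and 129 FPKM in corn oil libraries 1 to 3, and isocortex markers to 130, 73.5 and 68.4 FPKM under BBP and 62.7, 63.6 and 70.4 FPKM under corn oil. Of the isocortex sum, Lamp5 held 64.5 FPKM in BBP library 1, against 14.6 to 20.7 FPKM in the others. Without Lamp5 the isocortex sums were 65.4, 58.6 and 53.2 FPKM under BBP and 48.15, 47.0 and 49.7 FPKM under corn oil. Every BBP library then lay above every corn oil library. The isocortex markers Fezf2 and Tshz2 were lowest in BBP library 1. All 10 striatum and all 10 isocortex markers had a positive log2 fold change, and 0 passed edgeR's test, with 1 and 0 at an unadjusted p under 0.05. Markers of dentate granule neurons, a defining cell type of the hippocampus, summed to 38.1, 77.2 and 70.1 FPKM in BBP and 64.9, 71.3 and 47.1 FPKM in corn oil, lowest in BBP library 1. Choroid plexus markers summed to 84.5, 73.0 and 80.9 FPKM in BBP and 102, 142 and 399 FPKM in corn oil, with 9 of 10 negative, 0 called and 1 at an unadjusted p under 0.05. In the sum, the list's most abundant gene made this difference, with 51.5, 44.5 and 58.5 FPKM in BBP and 81.4, 115 and 366 FPKM in corn oil. The other 9 summed to 32.9, 28.5 and 22.4 FPKM in BBP and 21.02, 27.04 and 32.9 FPKM in corn oil, and the groups overlapped. Most of that remainder was Enpp2, the 1 marker of the list with a positive fold change. Enpp2 had 29.0, 22.7 and 17.6 FPKM in BBP and 16.4, 21.5 and 25.1 FPKM in corn oil. Oligodendrocyte markers summed to 908, 935 and 643 FPKM in BBP and 576, 794 and 599 FPKM in corn oil, with 10 of 10 positive, 0 called and 1 at an unadjusted p under 0.05. Of the 13 cell type lists, the thalamus and habenula list had the most genes at an unadjusted p under 0.05 in edgeR. It had 4 of 10, against 3.35% of all genes, and they did not share a direction. Rora and Synpo2 were higher in BBP, and Calb2 and Pou4f1 were lower, with Pou4f1 at 0.01 to 0.33 FPKM. No gene of any list was called, and no marker found in the table was at 0 in all libraries.

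**Figure D2:**
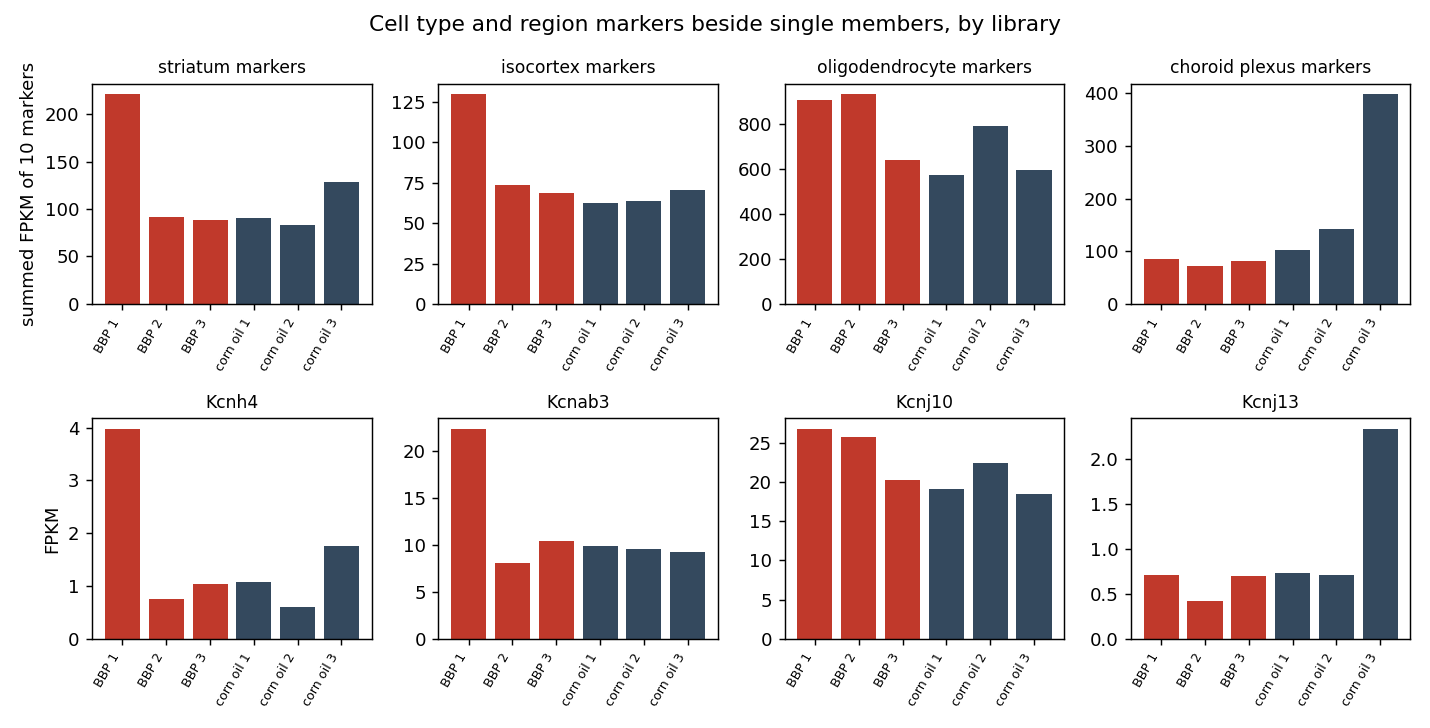
Summed FPKM of 4 marker lists (top row) and FPKM of Kcnh4, Kcnab3, Kcnj10 and Kcnj13 (bottom row) in each library, BBP bars left of corn oil bars. Striatum and isocortex sums are highest in BBP library 1, at 221 and 130 FPKM, and the choroid plexus sum is highest in corn oil library 3, at 399 FPKM.

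The members' FPKM spanned a wide range. Mean FPKM over all 6 libraries was at least 50 for 2 members, 20 to 50 for 8, 10 to 20 for 14, 5 to 10 for 12, 1 to 5 for 26, 0.1 to 1 for 23 and under 0.1 for 11. Summed over the 96 members, the level was 767, 677 and 730 FPKM in BBP libraries 1 to 3 and 711, 690 and 677 FPKM in corn oil libraries 1 to 3. The groups overlapped in this sum. In the order of mean levels, the ranges over 6 libraries separated only the top 3: Kcnab2 stood above Kcnip2 and Kcnip2 above Kcnk1 in every library. The other 93 of 95 neighbouring pairs overlapped.

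**Figure D3:**
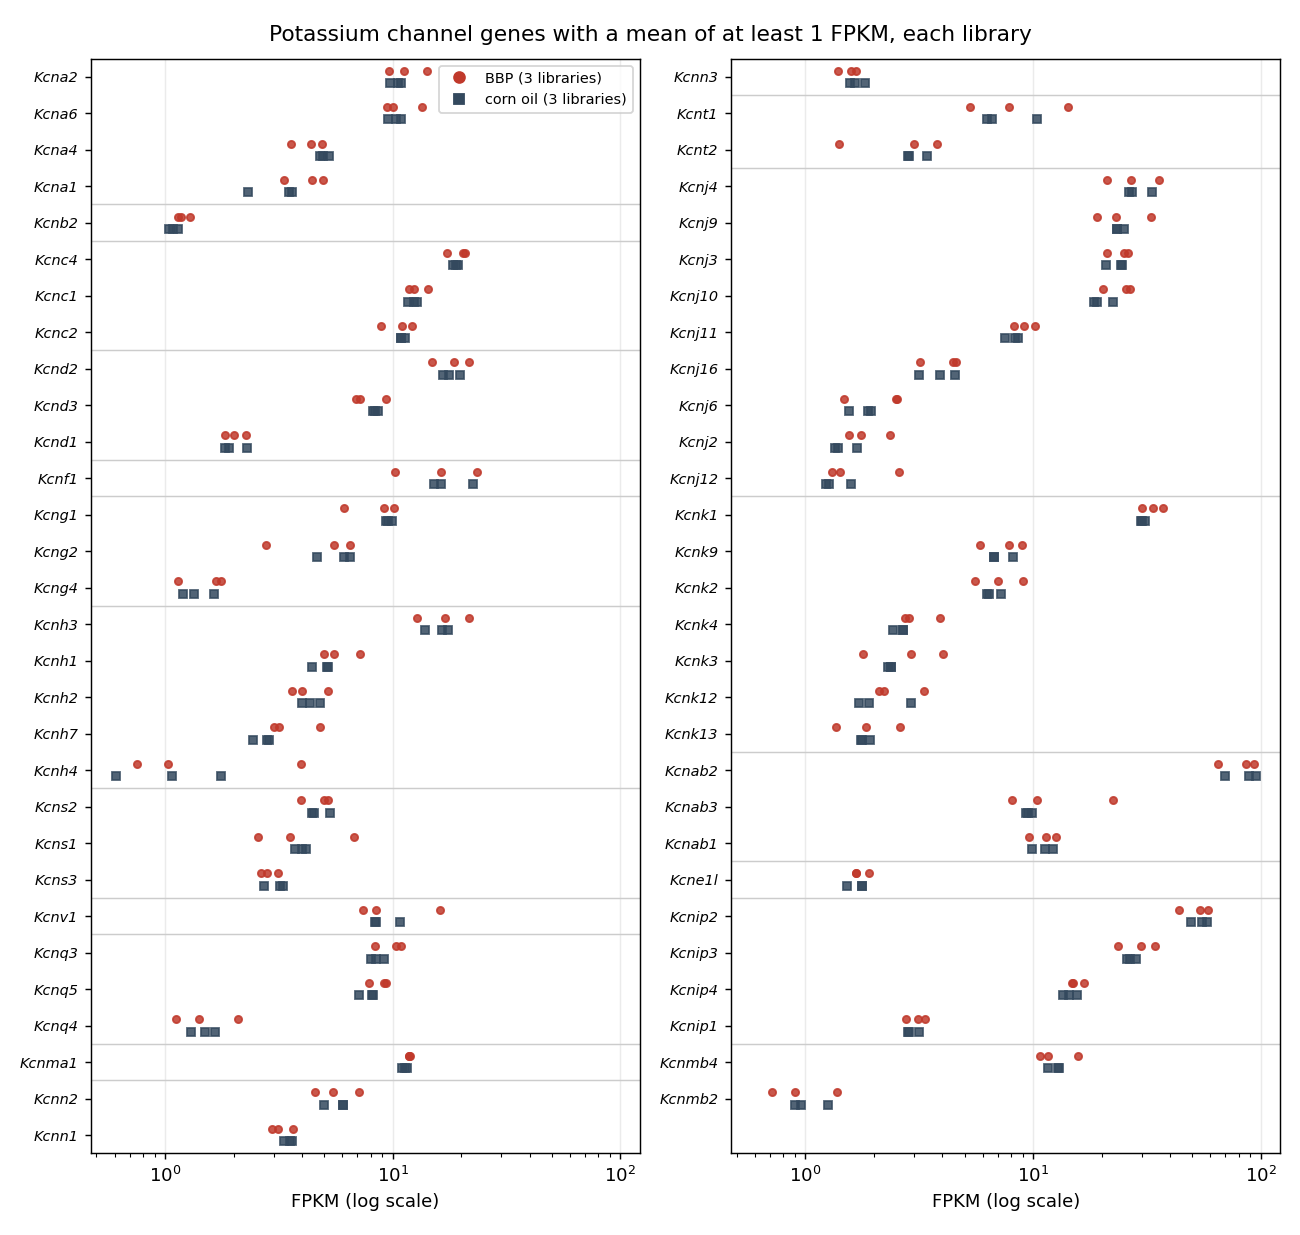
FPKM in each library, on a log axis, of 59 of the 62 members with a mean of at least 1 FPKM, ordered by prefix group, with circles for BBP and squares for corn oil. Kcnab2 and Kcnip2 lead, and for nearly every gene the points of both groups overlap.

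The most abundant members, Kcnab2 and Kcnip2, encode auxiliary rather than pore-forming subunits. Kcnab2, a cytoplasmic beta subunit of Shaker-type channels, had 65.1, 86.4 and 93.8 FPKM in BBP libraries 1 to 3 and 94.9, 88.5 and 69.9 FPKM in corn oil libraries 1 to 3. The low values were those of BBP library 1 and corn oil library 3, and the edgeR log2 fold change was -0.02 ± 0.17 (SE). Kcnab1, a beta subunit that speeds inactivation, had 9.61, 11.4 and 12.6 FPKM in the BBP libraries, against 12.2, 11.2 and 9.904 FPKM in the corn oil libraries, again lowest in those libraries. Kcnab3 had 22.4, 8.08 and 10.4 FPKM under BBP and 9.91, 9.53 and 9.29 FPKM under corn oil. BBP library 1 stood apart, above every other library, and Kcnab3 overlaps its antisense transcript Kcnab3os (1.33, 0.668 and 0.722 FPKM in the BBP libraries, against 0.998, 0.645 and 1.03 FPKM in the corn oil libraries). Kcnab2 overlaps Nphp4 and Gm16333 on the opposite strand. Because the strand setting of the counting is unknown (not given in the sources used here), the level of any gene that overlaps another is uncertain. Of the 96 members, 35 overlap another gene of the table on the opposite strand and 11 on the same strand.

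The Kcnip genes encode calcium-binding partners of Kcnd channels. Kcnip2 had 43.9, 54.1 and 58.9 FPKM in BBP libraries 1 to 3 and 58.00, 55.3 and 49.4 FPKM in corn oil libraries 1 to 3. Kcnip3, which is also a transcriptional repressor, had 34.4, 29.7 and 23.5 FPKM in the BBP libraries, against 25.9, 26.6 and 28.3 FPKM in the corn oil libraries. Kcnip4 had 14.9, 16.7 and 14.8 FPKM under BBP and 14.4, 13.6 and 15.6 FPKM under corn oil. The groups overlapped for each of the 3, and the log2 fold changes of the 4 Kcnip genes ranged from -0.03 to 0.14. Of their channel partners, Kcnd2, the dendritic A-type channel of pyramidal neurons, had 14.9, 18.6 and 21.7 FPKM in the BBP libraries, against 19.7, 17.7 and 16.6 FPKM in the corn oil libraries, with a log2 fold change of 0.06 ± 0.14 (SE). Kcnd3 had 6.87, 7.15 and 9.39 FPKM under BBP and 8.37, 8.17 and 8.66 FPKM under corn oil, and Kcnd1 had 2.004, 2.27 and 1.83 FPKM under BBP and 1.91, 1.84 and 2.28 FPKM under corn oil. All 3 Kcnd genes had overlapping groups, and the smallest unadjusted p was 0.472 in edgeR.

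Among the Shaker-related Kcna genes, Kcna2, an axonal subunit, had the highest mean, with 14.1, 9.64 and 11.2 FPKM in BBP libraries 1 to 3 and 10.9, 10.5 and 9.69 FPKM in corn oil libraries 1 to 3. Kcna6 had 13.4, 10.1 and 9.42 FPKM in the BBP libraries, against 9.55, 10.9 and 10.3 FPKM in the corn oil libraries. Kcna4, an A-type subunit, had 3.56, 4.89 and 4.36 FPKM under BBP and 4.92, 5.23 and 4.81 FPKM under corn oil. BBP library 1 was the highest library for Kcna2 and Kcna6 and the lowest for Kcna4. Kcna1, which dampens repetitive firing and is mutated in human episodic ataxia, had 3.34, 4.92 and 4.41 FPKM in BBP libraries 1 to 3 and 3.496, 3.605 and 2.32 FPKM in corn oil libraries 1 to 3. Its values under BBP libraries 2 and 3 were above every corn oil library, and BBP library 1 lay within the corn oil range. The edgeR log2 fold change of Kcna1 (chr6:126640397-126644813, minus strand) was 0.46 ± 0.22 (SE), with a 95% interval of -0.04 to 0.95 and an unadjusted p of 0.0671. It was 0.61 without BBP library 1 and 0.28 without corn oil library 3. The remaining members, Kcna3, Kcna5 and Kcna10, had means under 1 FPKM, and 5 of the 7 Kcna genes had a positive fold change.

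Of the Kcnb genes, which encode slow delayed-rectifier subunits, Kcnb2 had 1.18, 1.29 and 1.14 FPKM in BBP libraries 1 to 3 and 1.09, 1.14 and 1.04 FPKM in corn oil libraries 1 to 3. BBP libraries 1 and 2 lay above the corn oil range and BBP library 3 within it.

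The Kcnc genes encode Shaw-related channels that let interneurons fire fast. Kcnc4 had 20.3, 17.4 and 20.7 FPKM in the BBP libraries, against 18.9, 18.5 and 19.3 FPKM in the corn oil libraries. Kcnc1 had 14.3, 11.8 and 12.4 FPKM under BBP and 12.7, 12.4 and 11.7 FPKM under corn oil. The groups overlapped for both genes, and 3 of the 4 Kcnc genes had a positive log2 fold change.

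The electrically silent subunits join Kcnb channels and shift their gating. Kcnf1 had 23.6, 10.2 and 16.2 FPKM in BBP libraries 1 to 3 and 15.2, 16.3 and 22.4 FPKM in corn oil libraries 1 to 3. BBP library 1 and corn oil library 3 were the high libraries of their groups. Kcnv1 had 16.1, 7.41 and 8.47 FPKM in the BBP libraries, against 8.35, 8.47 and 10.8 FPKM in the corn oil libraries, with the same libraries high. Kcns1 had 6.78, 2.56 and 3.53 FPKM under BBP and 4.16, 3.71 and 3.99 FPKM under corn oil, highest in BBP library 1. Kcns2 had 5.01, 3.96 and 5.18 FPKM under BBP and 5.29, 4.53 and 4.41 FPKM under corn oil, and Kcns3 had 2.65, 2.799 and 3.14 FPKM under BBP and 3.29, 3.200 and 2.71 FPKM under corn oil. None of these was called by edgeR, with unadjusted p of 0.411 to 0.949. Kcng1 had 6.08, 9.16 and 10.2 FPKM in the BBP libraries, against 9.54, 9.32 and 9.97 FPKM in the corn oil libraries, and Kcng2 had 2.76, 5.505 and 6.500 FPKM in the BBP libraries, against 6.11, 6.52 and 4.64 FPKM in the corn oil libraries. Here BBP library 1 was the lowest of the 6. Kcnv2, at a mean of 0.012 FPKM, was too low to test. Kcng4 had 1.67, 1.75 and 1.14 FPKM under BBP and 1.35, 1.64 and 1.197 FPKM under corn oil.

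The Kcnh group (the ether-a-go-go, Erg and Elk channels) held the member with the smallest p. Kcnh7, an Erg-type channel expressed in neurons, had 4.81, 3.02 and 3.15 FPKM in BBP libraries 1 to 3 and 2.85, 2.43 and 2.802 FPKM in corn oil libraries 1 to 3. Every BBP library lay above every corn oil library, and BBP library 1 lay well above the other BBP libraries. Kcnh7 (chr2:62693414-63184287, minus strand) averaged 3.66 ± 0.9999 FPKM in BBP and 2.69 ± 0.228 FPKM in corn oil (SD, n = 3 each). Its edgeR log2 fold change was 0.46 ± 0.17 (SE), with a 95% interval of 0.07 to 0.85, an unadjusted p of 0.02496 and an adjusted p of 0.953. Without BBP library 1 the log2 fold change was 0.23, and over the other fits that leave out 1 library it was 0.39 to 0.57. The part of Kcnh7 that overlaps Gca on the opposite strand cannot be counted apart without the strand setting.

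Kcnh1, the ether-a-go-go channel, had 7.15, 5.01 and 5.505 FPKM in BBP libraries 1 to 3 and 5.199, 5.15 and 4.400 FPKM in corn oil libraries 1 to 3. The highest corn oil library lay above the lowest BBP library, and the log2 fold change was 0.28 ± 0.13 (SE, edgeR, unadjusted p = 0.0693), or 0.13 without BBP library 1. Kcnh3, an Elk channel of the forebrain, had 21.6, 12.8 and 17.02 FPKM in the BBP libraries, against 16.4, 13.9 and 17.5 FPKM in the corn oil libraries, and Kcnh2, the Erg channel best known from the heart, had 5.19, 3.63 and 3.98 FPKM under BBP and 4.32, 3.98 and 4.77 FPKM under corn oil. Neither separated the groups. Kcnh4, another Elk channel, had 3.98, 0.751 and 1.03 FPKM in the BBP libraries, against 1.07, 0.608 and 1.77 FPKM in the corn oil libraries. It was high in BBP library 1, and corn oil library 3 was the next. The log2 fold change of Kcnh4 was 0.74 ± 0.62 (SE), with an interval of -0.68 to 2.16. In all, 7 of the 8 Kcnh genes had a positive fold change, with a median of 0.48, and 0 were called.

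Kcnq3 and Kcnq5 encode subunits of the M-current channels that muscarinic receptors close. Kcnq3 had 8.403, 10.9 and 10.3 FPKM in the BBP libraries, against 9.13, 8.45 and 8.05 FPKM in the corn oil libraries. BBP libraries 2 and 3 were above all corn oil libraries for Kcnq3 and BBP library 1 was not. The log2 fold change of Kcnq3 was 0.24 ± 0.13 (SE, edgeR, unadjusted p = 0.0979), and it was 0.35 without BBP library 1. Kcnq5, a further subunit of the hippocampal M-current, had 9.14, 7.89 and 9.37 FPKM in BBP libraries 1 to 3 and 8.17, 8.14 and 7.09 FPKM in corn oil libraries 1 to 3. Here BBP libraries 1 and 3 stood above the corn oil libraries and BBP library 2 within them. The log2 fold change of Kcnq5 (chr1:21398403-21961942, minus strand) was 0.19 ± 0.09 (SE, edgeR, interval -0.01 to 0.40, unadjusted p = 0.0626). The imprinted antisense RNA Kcnq1ot1, which lies within Kcnq1, had 0.207, 0.255 and 0.233 FPKM under BBP and 0.1895, 0.209 and 0.228 FPKM under corn oil.

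Of the channels opened by calcium or sodium, Kcnma1, the large-conductance calcium-activated channel, had 11.8, 11.8 and 11.9 FPKM in BBP libraries 1 to 3 and 11.4, 11.5 and 11.04 FPKM in corn oil libraries 1 to 3. The 3 BBP values lay above the 3 corn oil values by a narrow margin, with a log2 fold change of 0.09 ± 0.08 (SE, edgeR, unadjusted p = 0.299). Its neuronal beta subunit Kcnmb4 had 15.8, 10.8 and 11.6 FPKM in the BBP libraries, against 12.9, 11.6 and 13.1 FPKM in the corn oil libraries, with overlapping groups. Among the small-conductance Kcnn genes, which carry the afterhyperpolarisation, Kcnn2 had 4.56, 5.47 and 7.102 FPKM under BBP and 6.03, 6.04 and 4.995 FPKM under corn oil. Kcnn1 had 3.14, 2.95 and 3.66 FPKM under BBP and 3.599, 3.54 and 3.32 FPKM under corn oil, and Kcnn3 had 1.58, 1.39 and 1.67 FPKM under BBP and 1.58, 1.65 and 1.83 FPKM under corn oil. None of the 3 separated the groups. Kcnmb2 had 0.898, 0.713 and 1.38 FPKM under BBP and 1.26, 0.954 and 0.8997 FPKM under corn oil, and Kcnmb1 had 0.114, 0.385 and 0.2604 FPKM under BBP and 0.1205, 0.163 and 0.337 FPKM under corn oil. Kcnt1, a sodium-activated channel, had 14.3, 5.29 and 7.85 FPKM in BBP libraries 1 to 3 and 6.29, 6.61 and 10.4 FPKM in corn oil libraries 1 to 3. It was highest in BBP library 1 and then in corn oil library 3. Kcnt2 had 3.78, 3.01 and 1.402 FPKM under BBP and 2.81, 3.42 and 2.86 FPKM under corn oil.

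Among inward rectifiers, the glial channel Kcnj10 had the second smallest p of all members. Kcnj10, which takes up potassium into astrocytes and oligodendrocytes, had 26.8, 25.7 and 20.3 FPKM in BBP libraries 1 to 3 and 19.1, 22.5 and 18.5 FPKM in corn oil libraries 1 to 3. BBP libraries 1 and 2 were above all corn oil libraries, and BBP library 3 was below corn oil library 2. Kcnj10 (chr1:172341210-172374085, plus strand) averaged 24.3 ± 3.49 FPKM in BBP and 20.03 ± 2.13 FPKM in corn oil (SD, n = 3 each), with a log2 fold change of 0.30 ± 0.14 (SE, edgeR, interval -0.02 to 0.62, unadjusted p = 0.0603). The fold change was 0.22 without BBP library 2 and 0.44 without BBP library 3. The same BBP libraries 1 and 2 had the highest oligodendrocyte marker sums, 908 and 935 FPKM, while astrocyte markers summed to 331, 333 and 358 FPKM in BBP and 306, 325 and 304 FPKM in corn oil. The part of these cell types in the Kcnj10 value was not tested. Kcnj16, which forms channels together with Kcnj10, had 4.58, 3.18 and 4.44 FPKM in the BBP libraries, against 3.89, 3.14 and 4.55 FPKM in the corn oil libraries.

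The neuronal inward rectifiers had overlapping groups. Kcnj4, a strong rectifier of forebrain neurons, had 35.6, 21.1 and 26.97 FPKM in BBP libraries 1 to 3 and 27.1, 26.4 and 33.3 FPKM in corn oil libraries 1 to 3. Kcnj9, a subunit of the channel opened by G proteins, had 33.05, 19.1 and 23.1 FPKM under BBP and 23.4, 23.5 and 24.97 FPKM under corn oil. Kcnj3, its partner, had 21.04, 26.2 and 25.1 FPKM under BBP and 24.7, 24.3 and 20.9 FPKM under corn oil. BBP library 1 was the highest library for Kcnj4 and Kcnj9. Another of these subunits, Kcnj6, had 1.48, 2.51 and 2.53 FPKM in the BBP libraries, against 1.94, 1.89 and 1.56 FPKM in the corn oil libraries. For Kcnj6, BBP libraries 2 and 3 exceeded every corn oil library and BBP library 1 was the lowest of all 6. Its log2 fold change was 0.30 ± 0.22 (SE, edgeR, unadjusted p = 0.2075, adjusted p = 0.953). It was 0.53 without BBP library 1, at an unadjusted p of 0.00442 and an adjusted p of 0.700 in edgeR. Kcnj2, a strong rectifier of neurons and vessels, had 2.36, 1.76 and 1.55 FPKM in the BBP libraries, against 1.39, 1.35 and 1.68 FPKM in the corn oil libraries, with a log2 fold change of 0.38 ± 0.18 (SE) that was 0.21 without BBP library 1. Kcnj12 had 2.58, 1.31 and 1.42 FPKM under BBP and 1.27, 1.24 and 1.59 FPKM under corn oil, highest in BBP library 1.

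Kcnj11 and Kcnj8 form the pore of the ATP-sensitive channel, which couples metabolism to excitability. Kcnj11 had 10.2, 9.11 and 8.26 FPKM in BBP libraries 1 to 3 and 8.58, 8.303 and 7.499 FPKM in corn oil libraries 1 to 3. Kcnj8, found mainly in vascular mural cells, had 1.35, 0.716 and 1.05 FPKM in the BBP libraries, against 0.559, 0.814 and 0.9998 FPKM in the corn oil libraries. Their log2 fold changes were 0.20 ± 0.11 and 0.40 ± 0.29 (SE), and the groups overlapped for both. The regulatory subunits of the same channel had the smallest p in the list of other potassium genes described further on.

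Kcnj13 was the member with the lowest fold change. It encodes an inward rectifier of epithelia such as the choroid plexus. Kcnj13 (chr1:87386363-87394729, minus strand) had 0.7095, 0.415 and 0.698 FPKM in BBP libraries 1 to 3 and 0.732, 0.7098 and 2.34 FPKM in corn oil libraries 1 to 3. All BBP values were below all corn oil values, by a narrow margin except for corn oil library 3, which was at 2.34 FPKM. The log2 fold change was -1.04 ± 0.50 (SE, edgeR, interval -2.19 to 0.11, unadjusted p = 0.0701), and it was -0.24 without corn oil library 3. Corn oil library 3 was also the library with the highest choroid plexus sum, 399 FPKM, against 73.0 to 142 FPKM in the others. Without the list's most abundant gene that sum was 32.9 FPKM both in BBP library 1 and in corn oil library 3. Of it, Enpp2 held 29.0 FPKM in BBP library 1 and 25.1 FPKM in corn oil library 3. At low levels, Folr1, Clic6, Aqp1, Slc4a5, Cldn2 and Sostdc1 were each highest in corn oil library 3, while Kl, Otx2 and Enpp2 were not. Kcne2, a small regulatory subunit that is also strong in choroid plexus, had 0.302, 0.639 and 0.3597 FPKM in the BBP libraries, against 0.3797, 0.4997 and 1.11 FPKM in the corn oil libraries, likewise highest in corn oil library 3. The part of choroid plexus tissue in these values was not tested. Kcnj13 overlaps Gigyf2 on the opposite strand.

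The tandem-pore Kcnk genes encode background channels. Kcnk1 had 37.2, 30.1 and 33.8 FPKM in BBP libraries 1 to 3 and 30.96, 30.1 and 29.9 FPKM in corn oil libraries 1 to 3. The highest corn oil library overlapped the lowest BBP library, and the log2 fold change of Kcnk1 (chr8:125995170-126030685, plus strand) was 0.17 ± 0.08 (SE, edgeR, interval -0.02 to 0.36, unadjusted p = 0.0707). Kcnk4, a channel opened by stretch and by arachidonic acid, had 3.88, 2.84 and 2.73 FPKM in the BBP libraries, against 2.42, 2.69 and 2.68 FPKM in the corn oil libraries. Every BBP library was above every corn oil library, the nearest by a small margin, with a log2 fold change of 0.30 ± 0.15 (SE, edgeR, unadjusted p = 0.0869), or 0.14 without BBP library 1. Kcnk2, opened by stretch and lipids, had 9.05, 5.53 and 7.01 FPKM under BBP and 7.24, 6.26 and 6.42 FPKM under corn oil. Kcnk9 and Kcnk3 are closed by acid: Kcnk9 had 8.92, 5.85 and 7.86 FPKM under BBP and 6.74, 6.71 and 8.19 FPKM under corn oil, and Kcnk3 had 4.04, 1.798 and 2.92 FPKM under BBP and 2.38, 2.32 and 2.38 FPKM under corn oil. BBP library 1 was the highest of the 6 for Kcnk1, Kcnk2, Kcnk3, Kcnk4 and Kcnk9. Of the 10 Kcnk genes tested, 8 had a positive fold change.

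**Figure D4:**
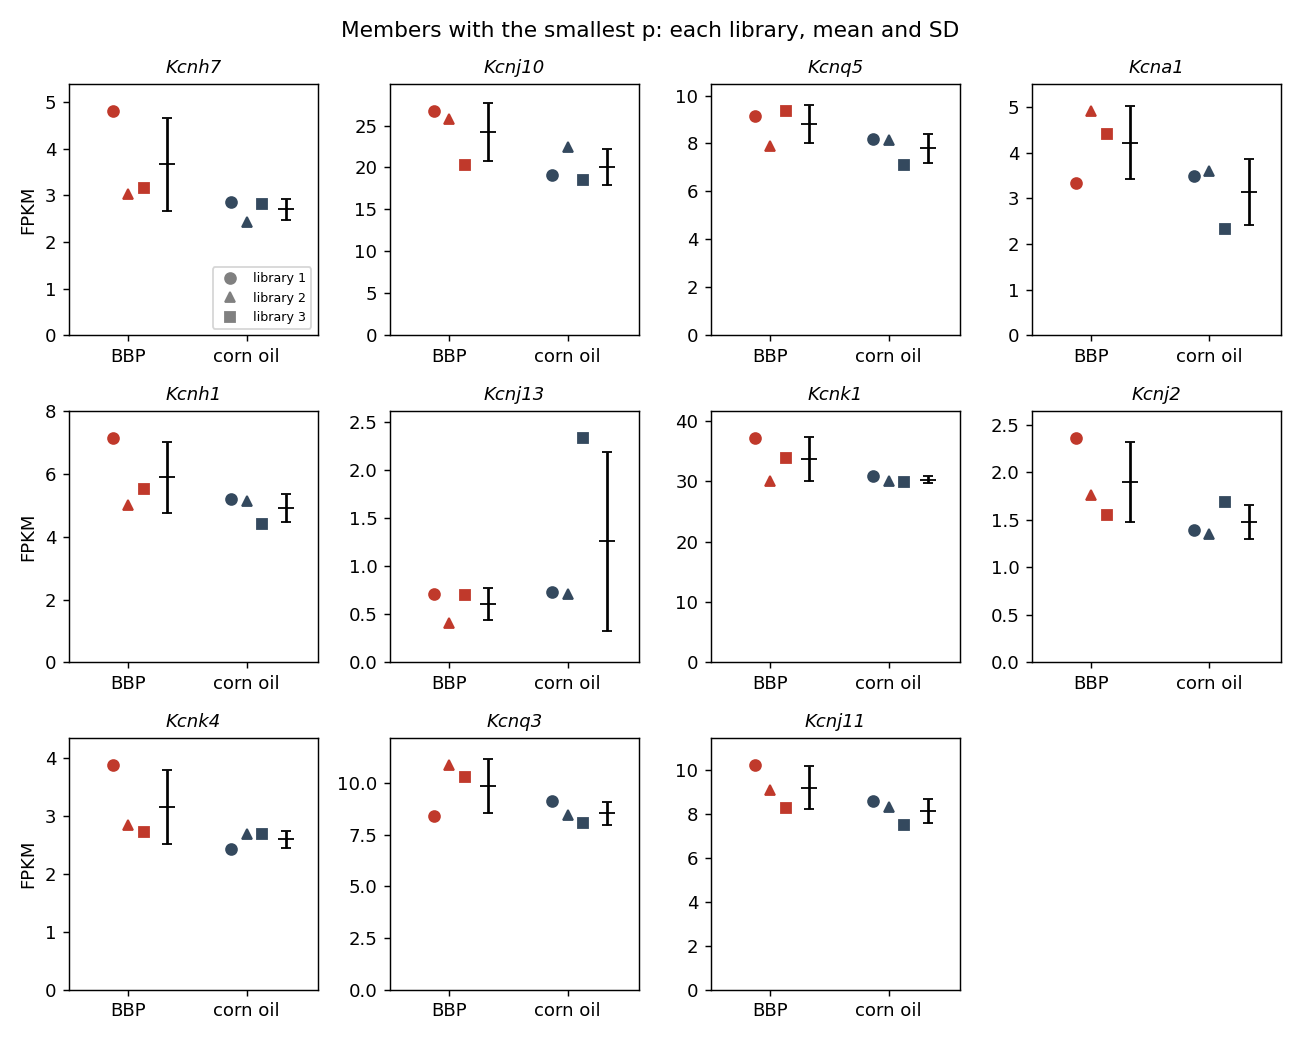
FPKM per library of 11 of the 12 members with the smallest unadjusted p, BBP left of corn oil, with the mean and SD of each group as a bar beside the points. Kcnh7, Kcnk4 and Kcnj13 have no overlap between groups. Kcnj13 is lower in BBP, by a narrow margin except for corn oil library 3 at 2.34 FPKM.

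The remaining named members were at low levels with overlapping groups. Kcne1l, the most abundant of the small Kcne subunits, had 1.91, 1.67 and 1.67 FPKM in BBP libraries 1 to 3 and 1.53, 1.77 and 1.76 FPKM in corn oil libraries 1 to 3. Kcne4, which inhibits some Kcna and Kcnq channels, had 0.285, 0.216 and 0.3000 FPKM under BBP and 0.198, 0.2103 and 0.331 FPKM under corn oil. The groups overlapped for both. Kcnu1, a channel best known from sperm, had 0.669, 0.702 and 0.642 FPKM in the BBP libraries, against 0.575, 0.713 and 0.8304 FPKM in the corn oil libraries. The antisense transcript Kcnmb4os2 had 0.875, 0.628 and 0.9004 FPKM under BBP and 0.896, 1.11 and 0.833 FPKM under corn oil. Kcnd3os, antisense to Kcnd3, had 0.817, 0.353 and 0.6699 FPKM under BBP and 0.405, 0.755 and 0.922 FPKM under corn oil. Of the 6 members outside the subunit families, 3 had a positive and 3 a negative fold change.

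Of the 12 members with the smallest p, 11 are named here: Kcnh7, Kcnj10, Kcnq5, Kcna1, Kcnh1, Kcnj13, Kcnk1, Kcnj2, Kcnk4, Kcnq3 and Kcnj11. All of these had a positive fold change but Kcnj13. Their signs were the same in all 13 other fits (11 for Kcnj13, which the filters on FPKM left out of the others), and none of these fits gave an adjusted p under 0.05. Among them, Kcnh1 overlaps Hhat and Kcnk1 overlaps Gm45875 on the opposite strand, and Kcnk4 overlaps Catsperz and Kcnq5 overlaps Gm7658 on the same strand.

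BBP library 1 was an end of the range for many members. Among the 73 members with a mean of at least 0.5 FPKM, it was the highest of the 6 libraries for 36 and the lowest for 12, or 49.3% and 16.4%, against 24.6% and 17.99% of 15402 genes at that level. Among those farthest above the other libraries, on the log2(FPKM + 0.1) scale, were Kcnh4 by 1.13, Kcnab3 by 1.10, Kcns1 by 0.69, Kcnj12 by 0.67, Kcnh7 by 0.59, Kcnv1 by 0.57 and Kcnk3 by 0.46. Farthest below were Kcng2, by -0.73, and Kcng1, by -0.58. Among the 36 members highest in BBP library 1, corn oil library 3 was the next highest for 15, or 41.7%, against 33.4% of all genes of that kind. Among the 12 lowest there, corn oil library 3 was the next lowest for 8, or 66.7%, against 37.2%. These same libraries had the highest striatum sums, 221 and 129 FPKM, and the lowest dentate granule neuron sums, 38.1 and 47.1 FPKM, and the part of tissue from other regions in the members' values was not tested. BBP library 2, in which mitochondrial genes took 11.5% of the counts against 7.11% to 8.57% in the others, was the lowest library for 28 of the 73 members, or 38.4%, against 41.6% of all genes.

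**Figure D5:**
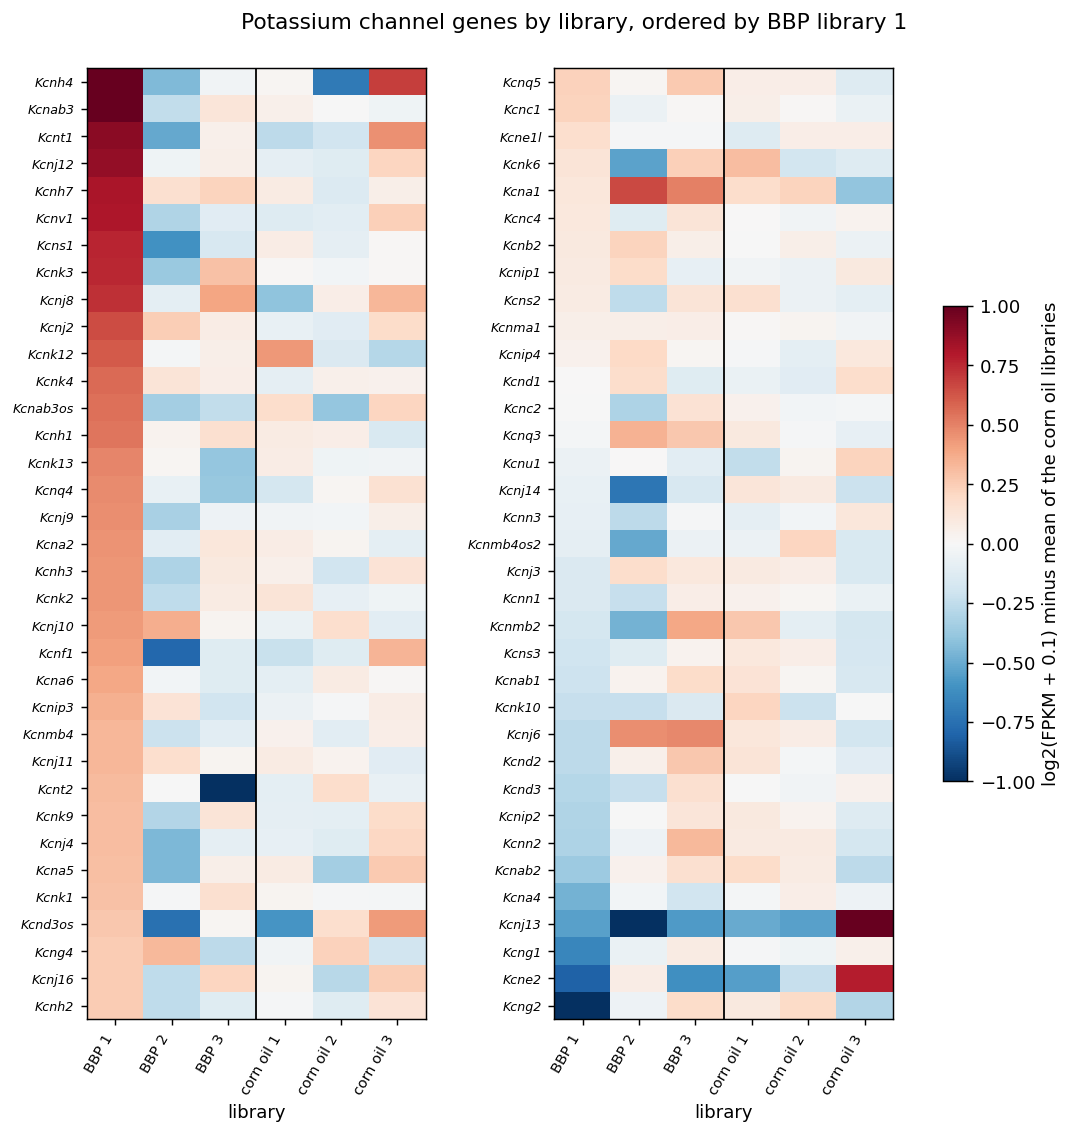
Log2 level of each member in each library relative to the mean of the corn oil libraries, for 70 of the 73 members with a mean of at least 0.5 FPKM, BBP libraries left of corn oil libraries and rows ordered by BBP library 1, with colours at their limit beyond 1 in either direction. BBP library 1 is the highest library for 36 of the 73 members and the lowest for 12.

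A list of 36 other genes that work with potassium channels or move potassium held 35 in the table, all tested. Of these, 28 had a positive and 7 a negative fold change, with a median of 0.10 on the log2 scale, against 0.01 for all genes. By edgeR 0 passed an adjusted p of 0.05, as in every other fit, and 2 had an unadjusted p under 0.05, or 5.71%, against 3.35% of all genes. Both encode sulfonylurea receptors, the regulatory subunits of the ATP-sensitive channel. Abcc9, the receptor of mural cells, had 0.929, 0.9396 and 0.717 FPKM in BBP libraries 1 to 3 and 0.489, 0.578 and 0.6198 FPKM in corn oil libraries 1 to 3. Abcc8, the neuronal receptor, had 4.41, 4.86 and 4.57 FPKM in the BBP libraries, against 3.996, 4.21 and 3.31 FPKM in the corn oil libraries. All BBP libraries lay above all corn oil libraries for both. The log2 fold changes were 0.64 ± 0.18 for Abcc9 and 0.29 ± 0.12 for Abcc8 (SE, edgeR), with unadjusted p of 0.00815 and 0.0418 and an adjusted p of 0.953 for each. Endothelial and mural markers summed to 85.8, 61.0 and 77.7 FPKM in BBP and 69.8, 67.0 and 74.3 FPKM in corn oil. These sums overlapped between groups. Of the 10 markers, 9 were positive, 0 were called and 1 (Flt1) had an unadjusted p under 0.05 in edgeR. The list's median log2 deviation from the corn oil mean, in normalised counts, was 0.271, 0.165 and 0.098 in BBP libraries 1 to 3. It was 0.013, -0.002 and 0.046 in corn oil libraries 1 to 3, below every BBP library. The part of these cell types in the Abcc9 value was not tested.

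Other partners and transporters had overlapping groups. Hcn2, a pacemaker channel, had 34.7, 31.4 and 27.4 FPKM under BBP and 28.5, 26.6 and 26.2 FPKM under corn oil, with a log2 fold change of 0.22 ± 0.11 (SE). Dpp6, an accessory subunit of Kcnd channels, had 17.4, 30.4 and 26.9 FPKM in the BBP libraries, against 26.2, 25.00 and 23.8 FPKM in the corn oil libraries, lowest in BBP library 1. Cntnap2, which clusters Kcna channels beside the node of Ranvier, had 6.71, 7.600 and 8.41 FPKM in the BBP libraries, against 7.99, 7.28 and 7.51 FPKM in the corn oil libraries. Slc12a5, the neuronal potassium-chloride cotransporter, had 61.6, 45.1 and 57.5 FPKM under BBP and 56.7, 54.3 and 58.05 FPKM under corn oil.

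The members' promoters were compared by short motifs, read on both strands in the RefSeq window from 250 bases before to 50 after the first listed start (GRCm38.p6). Of the 96 members, 69 matched a window. The GC box GGGCGG was in 53.6% of them, against 36.2% of 26742 promoters, and TATAAA was in 4.35%, against 14.1%. TGACG was in 26.1%, against 21.1%, and TGACGTCA, which contains it, was in 0%, against 1.89%. The 150 bases before the start are shown for Kcnh7, the member with the smallest p, and for Kcnj13, the member with the lowest fold change, because the Kcnh7 window holds GC boxes and the Kcnj13 window TATAAA. The capitals mark GC boxes in Kcnh7 (chr2:63184288-63184437, minus strand), which read CCGCCC on the strand shown, and TATAAA in Kcnj13 (chr1:87394730-87394879, minus strand). These matches are a description of the letters and were not tied to the values.
Kcnh7: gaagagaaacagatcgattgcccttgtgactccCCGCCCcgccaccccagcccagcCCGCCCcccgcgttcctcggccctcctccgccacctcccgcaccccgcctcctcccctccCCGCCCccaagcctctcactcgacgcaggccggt
Kcnj13: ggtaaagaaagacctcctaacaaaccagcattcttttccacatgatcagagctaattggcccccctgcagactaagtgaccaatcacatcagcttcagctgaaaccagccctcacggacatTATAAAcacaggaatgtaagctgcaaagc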

How the data were processed

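Hippocampal RNA-seq was analysed in 3 BBP and 3 corn oil libraries, grouped by the treatment label, and no library was left out. Per the labels' protocols, polyA RNA was made into strand-marking paired-end libraries whose adapters carry molecular identifiers. The build in the submitters' processing notes is mm10, and the tools listed there, without roles, are edgeR, DESeq2, StringTie 2.1.6, HISAT2 2.2.1, cutadapt 1.9 and UMI-tools. Each gene has an estimated count and an FPKM value per library, per the file headers. The deposited estimated counts are whole numbers, and a count of 4 was held by more genes (1007 to 1100 per library) than 3 (595 to 650) or 5 (326 to 392), so 1 count may not be 1 fragment. How the authors made them is unknown, as is the strand setting. Levels and limma fits used the deposited FPKM as it stands.

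The test was edgeR's quasi-likelihood test (4.0.16, R 4.3.3) on the counts with TMM and filterByExpr and no term but treatment. Benjamini-Hochberg adjustment ran over 20428 genes, with adjusted p under 0.05 as the threshold. The common biological coefficient of variation was 0.225. The alternatives were DESeq2 1.42.0, median-of-ratios size factors, no filter, a replicate block, leaving out each library, and limma 3.58.1 with trend on log2(FPKM + 1) or log2(FPKM + 0.1) at a mean FPKM of at least 1, and with no filter. The code was tested on simulated counts. Gene coordinates are those of the deposited table on mm10, and for 85 of 96 members they equal GENCODE M21. Selectivity filters were searched in the longest complete coding sequence of each member.

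The members, marker lists and the list of other potassium genes were chosen with earlier results of these data known. Members named with values were the top 3 of each prefix group by mean FPKM, the 12 with the smallest p, and the 10 in which BBP library 1 lay farthest from the others among those with a mean of at least 0.5 FPKM, 64 in all; those among them at low levels are given by counts. Genes named outside this rule were chosen after their values were seen. A few of the genes so chosen are not reported here, in text or figures.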

Additional observations from a re-analysis of the deposited data

How the results depend on the processing

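No member passed an adjusted p of 0.05 in any of the 13 other fits, and the same holds for the list of other potassium genes. Over all genes, edgeR's count of 0 became 4 with DESeq2 and 0 to 3 over the fits that leave out 1 library, with 3 without BBP library 1 and 1 without corn oil library 2. The members' median log2 fold change of 0.09 was 0.03 to 0.09 in the fits that keep all libraries and 0.025 to 0.146 in those that leave out 1. Members at an unadjusted p under 0.05 numbered 1 in edgeR, 3 in DESeq2, 0 in both limma fits with a filter on FPKM, and 2 to 9 over the fits that leave out 1 library. As shares of the members against all genes, these were 1.14% against 3.35% in edgeR, 3.41% against 3.87% in DESeq2, and 0.0% against 2.98% and 2.95% in the limma fits with 1 and 0.1 added. Without 1 library they were above the share of all genes in 4 of 6 fits, with 9 of 90 members against 3.43% without BBP library 2. All 12 members with the smallest p kept their sign in every fit that tested them. With the replicate block, edgeR called 0 genes and 0 members, the members' median was 0.08, and 3 members had an unadjusted p under 0.05 (Kcnh7, Kcnj10 and Kcnh6), or 3.41%, against 2.42% of all genes. The shared numbers were not treated as a pairing in the main fit, since the labels do not say that they pair animals. Deviations of same-numbered libraries from their group means correlated at -0.08, 0.08 and -0.10, and those of differently numbered libraries at -0.07 to 0.15. Because each mean is of only 3 libraries, these values cannot decide whether the libraries were paired. With 3 libraries per group and a median standard error of 0.18, the 95% interval of the fold change reached 2-fold or beyond for 21 of the 88 members tested.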
